A study of Homo sapiens with 18 samples.

Results

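Solute carrier genes, named SLC followed by a family number, the letter A and a member number, make membrane proteins that move ions, nutrients, metabolites and metals across the cell surface and organelle membranes. The members were chosen by symbol and by their summed count in RNA-seq of 3 metastatic breast cancer lines, as all genes of that name pattern with at least 2000 counts summed over the 18 libraries. Among the 58815 genes counted, 335 fitted the pattern, and 160 of them, from 43 families, reached the minimum. Another 175 stayed below it, and 10 of these had 0 counts. SLC22A18 (2012 counts) and SLC43A2 (2230 counts) lay just inside the minimum, and SLC25A27 (1975 counts) and SLC27A3 (1736 counts) just outside it. All 160 members passed the filter on low counts and were tested. The summed count weights the deeper libraries, and LM2 held 44.1% of all counts, BrM3 30.3% and BoM 25.6%. An even share of the minimum (its value divided by the number of lines) was reached in every line by 141 members, in 2 lines by 12 and in LM2 alone by 7 (SLC13A4, SLC22A18, SLC22A23, SLC25A10, SLC43A2, SLC47A1 and SLC6A8). Counts over the members are therefore also given for those 141, a choice made after the data were seen.

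The cells were LM2, BrM3 and BoM, derivatives of the human triple-negative breast cancer line MDA-MB-231 that metastasize to lung, brain and bone, respectively. Each line carried a doxycycline (DOX) inducible short hairpin, either the control hairpin shCtrl or shWDR5 against WDR5, a scaffold protein of histone methyltransferase complexes. All cells, controls included, received DOX at 1 μg/mL for 3 days, and 3 libraries from different passages were made for each line and hairpin. A single WDR5 hairpin and a single derivative per metastatic site were sequenced, so effects of that hairpin or of that cell population cannot be told apart from those of WDR5 or of the site. The source labels name another line than the titles for most libraries, the cell line label gives BrM2 for BrM3, and the titles were followed.

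Carriers work along gradients or exchange one solute for another. Amino acid and glucose carriers at the surface feed growth, mitochondrial carriers of the SLC25 family link cytosolic and mitochondrial metabolism, and metal carriers of the SLC30, SLC39 and SLC40 families set zinc and iron content. Many cancer cells express the glucose carrier SLC2A1 (GLUT1), the amino acid exchanger SLC7A5 (LAT1) and the cystine carrier SLC7A11 (xCT) at high levels.

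Libraries held 17485841 to 119667013 counts, and the members took between 1.03% and 1.17% of the counts in each. WDR5 lay between 79.4 and 134 CPM (counts relative to library size, scaled by the trimmed mean of M-values) in the 9 shCtrl libraries and between 14 and 24.4 CPM in the 9 shWDR5 libraries. The mesenchymal markers VIM, CD44, AXL and EGFR were at 374 CPM or more in every library, ESR1 and PGR did not exceed 0.715 CPM, and PTPRC, CD3E, ALB and HBB of other cell types did not exceed 1.06 CPM, while PECAM1 reached 4.67 CPM. The epithelial marker CDH1 stayed at or below 0.601 CPM, EPCAM ran from 4.39 to 10.1 CPM, and KRT8 from 194 to 447 CPM. Counts are relative to each library's total, so a lower level in all cells and a loss of the cells that express a gene cannot be told apart.

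Members were compared with each other per kilobase of exon, as CPM per kilobase averaged over the lines' shCtrl libraries. These levels ran from 0.263 to 379 with a median of 4.55, and the 10 highest members held 49.9% of the sum. The ADP/ATP exchanger of the inner mitochondrial membrane SLC25A5 (ANT2) was the highest in every line, at 355 ± 16.5 for LM2, 402 ± 12.3 for BrM3 and 380 ± 21.8 CPM per kilobase for BoM (SD, n = 3). The mitochondrial phosphate carrier SLC25A3 came next in the average over the lines, at 81.2 ± 4.78, 118 ± 2.51 and 131 ± 8.4 CPM per kilobase. Around and below it, the levels of neighbouring members lay close together, and their order changed from line to line. In LM2, SLC7A5, which imports large neutral amino acids, was at 136 ± 20 and the zinc carrier of the endoplasmic reticulum SLC39A7 at 79.9 ± 4.34 CPM per kilobase, whereas in BoM they were at 80.2 ± 6.17 and 104 ± 5.63. The glutamine carrier SLC1A5 (63.7 ± 5.73), the phosphate importer SLC20A1 (77.8 ± 6.32), the sodium-coupled amino acid carrier SLC38A2 (51.7 ± 6.3), SLC2A1 (56.5 ± 5.89) and the nucleoside carrier SLC29A1 (38.9 ± 3.05) were also among the 10 highest over the lines, at these LM2 levels in CPM per kilobase. In LM2 the levels of SLC1A5, SLC2A1 and SLC38A2 overlapped within their SD, as did those of SLC25A3, SLC39A7 and SLC20A1. Genes on the opposite strand cover 23.8% of the exons of SLC1A5. SLC25A6, another ADP/ATP exchanger, showed 98.6 ± 40.1 CPM per kilobase in LM2, and all of its 50-base windows also occur in its annotated copy on the other sex chromosome, so its counts are uncertain.

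**Figure D1:**
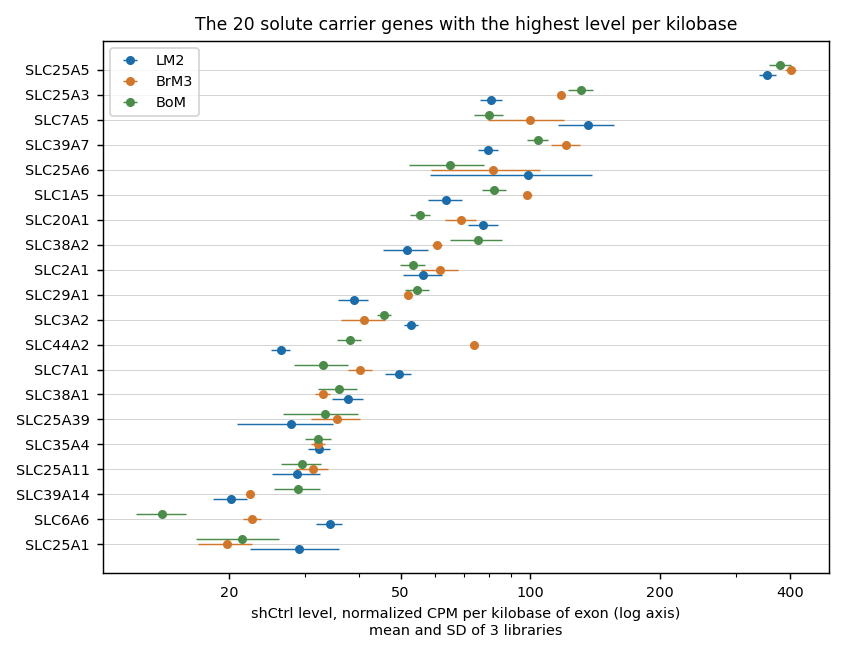
Levels of the 20 members highest per kilobase in shCtrl cells, as the mean and SD of 3 libraries per line on a log axis of normalized CPM per kilobase of exon. SLC25A5 stands above the others in all 3 lines, while SLC44A2 is highest in BrM3 (73.9 CPM per kilobase) and SLC7A5 in LM2 (136 CPM per kilobase).

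SLC40A1 (ferroportin), the iron exporter of the cell surface, fell after WDR5 knockdown in each line, and it was the member with the largest average change. The gene lies at chr2:189560590-189583758 on the minus strand of GRCh38. In LM2 the 3 shCtrl libraries read 5.06, 4.9 and 5.03 CPM and the 3 shWDR5 libraries 3.0, 2.8 and 2.7 CPM. In BrM3 the values were 3.9, 4.37 and 3.85 CPM against 1.71, 1.43 and 1.83 CPM, and in BoM they were 1.8, 1.12 and 1.36 CPM against 0.617, 0.504 and 0.269 CPM. The hairpin groups did not overlap in any line. The fold of shWDR5 over shCtrl was 0.57 for LM2 (log2 -0.81 ± 0.18 SE, adjusted p = 0.01) and 0.413 for BrM3 (log2 -1.28 ± 0.19, adjusted p = 0.00051). For BoM it was 0.333 (log2 -1.58 ± 0.24, adjusted p = 0.00034). The gene is low, with 7 to 618 reads per library. Its shCtrl libraries gave 1041, 510 and 141 reads in LM2, BrM3 and BoM, and its shWDR5 libraries 354, 168 and 43. It thus reached the count minimum mainly through the shCtrl libraries.

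SLC25A35, a mitochondrial carrier at chr17:8287763-8295400 on the minus strand, was the other member that fell at least 2-fold on average. Its shCtrl libraries read 3.59, 5.75 and 5.41 CPM in LM2, 3.17, 3.31 and 3.54 CPM in BrM3 and 5.07, 6.43 and 5.59 CPM in BoM. Its shWDR5 libraries read 2.58, 2.83 and 2.93 CPM, 1.31, 1.66 and 1.25 CPM, and 2.44, 1.9 and 3.08 CPM in the same order of lines. Every shWDR5 library lay below every shCtrl library of its line, with folds of 0.557, 0.422 and 0.434 (adjusted p = 0.011, 0.001 and 0.00049). Of its exon sequence 28.7% is covered by genes on the opposite strand, and the strand setting of the counting is not given in the sources used here. SLC25A17, a family member of the peroxisomal membrane that carries coenzyme A and related cofactors, was the third member called lower in all 3 lines. It fell from 29.8 ± 1.91 to 21.3 ± 1.28 CPM in LM2, from 27.7 ± 1.45 to 21.8 ± 0.354 CPM in BrM3 and from 30.5 ± 2.49 to 22.7 ± 3.3 CPM in BoM (SD, n = 3), with adjusted p = 0.0091, 0.042 and 0.011.

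Across the 160 members, the question was which carriers respond to the loss of WDR5 in each line. In LM2 0 members were called higher and 9 lower at an adjusted p under 0.05 by edgeR's quasi-likelihood test, which is 5.62% of the members where 6.29% of all 12160 genes tested were called (1.49% higher and 4.8% lower). The BrM3 cells had 3 members higher and 14 lower, 10.6% against 10.9% of all genes (2.92% higher and 7.96% lower). The BoM cells had 10 higher and 23 lower, 20.6% against 16.2% of all genes (5.41% higher and 10.8% lower). With the contrast averaged over the lines, 19 members rose and 45 fell, together 40.0% against 35.5% of all genes. By direction, 11.9% of the members were higher against 15.6% of all genes, and 28.1% were lower against 19.9%. The minimum summed both hairpins, so a low gene could be chosen through its shCtrl counts, as SLC40A1 and SLC43A2 mainly were. The even share per line summed both hairpins too. These counts by direction are therefore a description. Over the 141 members that reached an even share of the minimum in every line, 0 were higher and 7 lower in LM2, 3 and 6 in BrM3, 10 and 17 in BoM, and 19 (13.5%) and 32 (22.7%) on average. SLC40A1 and SLC25A35 are not among those 141. In a fit blocked on the replicate number, the LM2 cells had 7 members higher and 13 lower where 11.9% of all genes were called, the BrM3 cells 8 and 27 (19.0%), and the BoM cells 18 and 32 (26.4%). The median log2 fold change over the members was -0.03 in this contrast, beside 0.003 over all genes tested. All 64 members called on average had the same sign in the 3 lines. Calling by the mean of these 3 effects favours equal signs, and the same tally was not made for all genes called. Only SLC40A1 and SLC25A35 among them changed 2-fold or more in the averaged contrast. Among the identity markers EPCAM fell by 0.6 and KRT8 by 0.25 on the log2 scale on average, and PECAM1 (0.41), VIM (0.2) and EGFR (0.2) rose, and whether this bears on the carriers was not tested.

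The members that fell and those that rose differed in sequence composition and level. The median GC content of exons was 55.8% for the 45 that fell and 43.3% for the 19 that rose, and over all genes called it was 51.2% and 45.7%. The median level was 10.5 CPM for the members that fell and 64.3 CPM for those that rose. Levels of all genes called were not compared, so this may not be particular to the carriers. With loess offsets that take out how the counts of a library depend on GC content, 49 members were higher and 46 lower on average. Of all genes 51.9% were called in that fit. The same offsets gave 20 higher and 13 lower members for LM2, 28 and 25 for BrM3, and 30 and 30 for BoM. They called 17.6%, 25.6% and 29.4% of all genes in these lines. With DESeq2 and its size factors 5 were higher and 11 lower in LM2 and 9 and 16 in BrM3. DESeq2 called 9.43% and 14.6% of all genes there. Without a filter the counts were 3 and 5 in LM2, beside 2.34% of the 41236 genes then tested. In the averaged contrast falls were 70.3% of the members called in the fit used throughout. This share was 66.2% with DESeq2, 65.1% with filterByExpr, 63.3% without a filter and 65.8% with the replicate block. With GC offsets it was 48.4%, and the median log2 fold change over all genes was then 0.052 instead of 0.003. Calls over all genes were not split by direction with the offsets, and the cause was not tested.

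**Figure D2:**
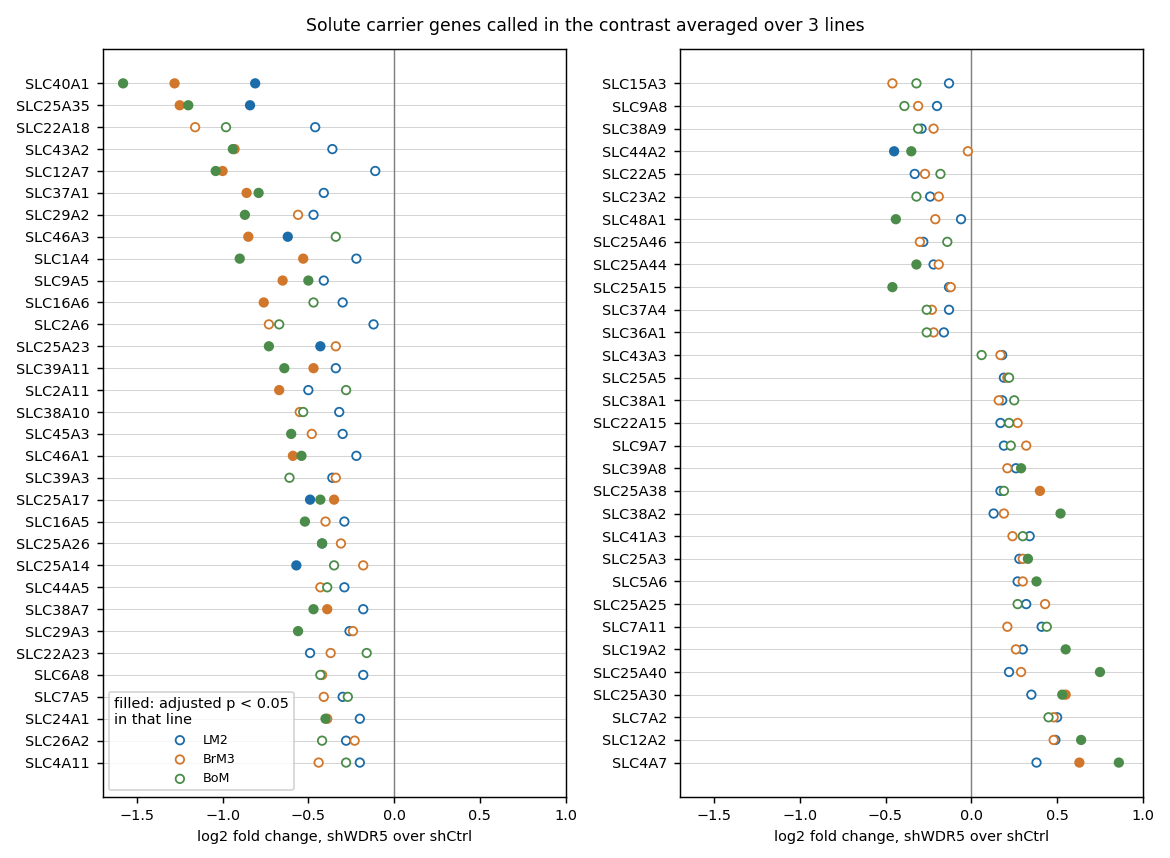
Log2 fold change of shWDR5 over shCtrl in LM2, BrM3 and BoM for 63 of the 64 members called in the averaged contrast, ordered by their average, with filled points where that line's adjusted p was under 0.05. SLC40A1, SLC25A35 and SLC25A17 are filled in all 3 lines, and points of a member lie on the same side of 0, which the choice by the averaged contrast favours.

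Members were taken by average change in each direction if they had a single promoter in the RefSeq table. Those on a chromosome left out of the printed sequences were passed over. Promoter windows of the first remaining members are shown, since WDR5 acts at promoters and these windows let the starts be compared. They span 250 bases before to 50 bases after the start (GRCh38.p14, RefSeq), 5′ to 3′ on the gene's strand, at chr5:128083516-128083815 (+) for SLC12A2, chr7:87876311-87876610 (-) for SLC25A40, chr2:189580737-189581036 (-) for SLC40A1 and chr5:1112014-1112313 (-) for SLC12A7. Capitals mark CACGTG, the E-box bound by MYC and related factors.
SLC12A2 (rose): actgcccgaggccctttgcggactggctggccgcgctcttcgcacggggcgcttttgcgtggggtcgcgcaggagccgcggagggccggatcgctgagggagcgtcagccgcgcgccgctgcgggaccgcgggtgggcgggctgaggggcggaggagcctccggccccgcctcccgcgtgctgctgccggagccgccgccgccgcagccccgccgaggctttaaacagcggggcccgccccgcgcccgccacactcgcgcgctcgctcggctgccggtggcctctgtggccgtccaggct
SLC25A40 (rose): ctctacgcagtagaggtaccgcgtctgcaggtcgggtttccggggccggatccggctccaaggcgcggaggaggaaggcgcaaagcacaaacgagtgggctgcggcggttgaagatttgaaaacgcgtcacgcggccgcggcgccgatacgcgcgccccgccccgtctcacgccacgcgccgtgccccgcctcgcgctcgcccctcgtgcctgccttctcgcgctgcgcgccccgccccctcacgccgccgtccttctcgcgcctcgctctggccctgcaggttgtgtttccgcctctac
SLC40A1 (fell): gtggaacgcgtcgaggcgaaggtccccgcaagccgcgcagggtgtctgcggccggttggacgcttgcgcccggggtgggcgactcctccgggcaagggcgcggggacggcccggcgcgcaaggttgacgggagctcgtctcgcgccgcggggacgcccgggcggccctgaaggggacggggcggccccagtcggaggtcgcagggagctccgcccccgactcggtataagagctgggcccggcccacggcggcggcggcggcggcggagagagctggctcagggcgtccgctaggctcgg
SLC12A7 (fell): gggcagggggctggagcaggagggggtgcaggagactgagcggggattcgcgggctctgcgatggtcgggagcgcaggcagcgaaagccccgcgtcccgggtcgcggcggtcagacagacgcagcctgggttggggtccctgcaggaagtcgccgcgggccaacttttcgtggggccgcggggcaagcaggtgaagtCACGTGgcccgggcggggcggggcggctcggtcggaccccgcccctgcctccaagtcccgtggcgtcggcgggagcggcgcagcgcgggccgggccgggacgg
GC content was 78.7%, 71.3%, 77.7% and 76.3% in this order, so these windows were GC-rich in both directions. CACGTG, which reads the same on both strands, occurred once, 53 bases before the start of SLC12A7. Promoters were found for 128 of the 160 members, with 196 windows. Of these windows 14.3% held CACGTG, beside 7.26% of all 35116 windows in the table. That table covers 27305 genes whether expressed here or not, while members were chosen by their counts. The 2 sets are thus unlike, and the difference is not a measure of enrichment among carriers. The share was 17.3% (9 of 52 windows) for members that fell and 8.7% (2 of 23) for members that rose. TGATGNAA, the core of the amino acid response element bound by ATF4, was searched on both strands, and 5.1% of the members' windows held it beside 3.62% of all windows. By direction it was in 3.85% (2 of 52 windows) for members that fell and 4.35% (1 of 23) for members that rose. These letters mark no proven site, and both motifs were chosen with the fold changes known.

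Among the 19 members for sodium, protons, potassium, chloride, calcium and bicarbonate, 3 rose and 6 fell on average, 15.8% and 31.6% beside the 15.6% and 19.9% of all genes in this contrast. In groups of this size 1 gene moves such a share by several percentage points. SLC4A7 (NBCn1), a sodium-bicarbonate importer that alkalinizes the cytosol, at chr3:27372721-27484420, rose the most of all members. Its shCtrl libraries read 57.9, 47.1 and 46.3 CPM in LM2, 96.2, 76.4 and 91.0 CPM in BrM3, and 92.5, 55.8 and 77.8 CPM in BoM. Its shWDR5 libraries read 69.2, 74.2 and 52.5 CPM, 167, 118 and 123 CPM, and 166, 115 and 129 CPM. The groups overlapped in LM2 and were apart in BrM3 and BoM, where the fold reached 1.54 and 1.82 (adjusted p = 0.042 and 0.0054), against 1.3 for LM2 (adjusted p = 0.28, or 0.033 with the replicate block). SLC12A2 (NKCC1), which brings sodium, potassium and chloride into the cell, read 35.0, 28 and 25.4 CPM against 43.0, 44.9 and 35.2 CPM in LM2. In BrM3 it read 38.2, 35.4 and 36.9 CPM against 56.1, 48.5 and 49.1 CPM, and in BoM 43.2, 29.1 and 42.1 CPM against 74.2, 51.9 and 52.3 CPM. All shWDR5 libraries exceeded the shCtrl libraries of their line, with an average fold of 1.45 (log2 0.54 ± 0.1, adjusted p = 0.00036). SLC12A7 (KCC4), which moves potassium and chloride outward, fell in BrM3 from 4.21, 6.45 and 5.79 CPM to 2.34, 3.16 and 2.64 CPM (adjusted p = 0.0099). A like fall was seen with BoM, from 4.64, 5.17 and 4.08 CPM to 2.25, 1.74 and 2.77 CPM (adjusted p = 0.0068). In LM2 it read 5.71, 8.71 and 8.64 CPM in shCtrl and 7.1, 5.5 and 9.23 CPM in shWDR5, and these groups overlapped. The sodium-proton exchanger SLC9A5 fell by 0.52 ± 0.07 on the log2 scale on average (adjusted p = 2.5e-05).

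**Figure D3:**
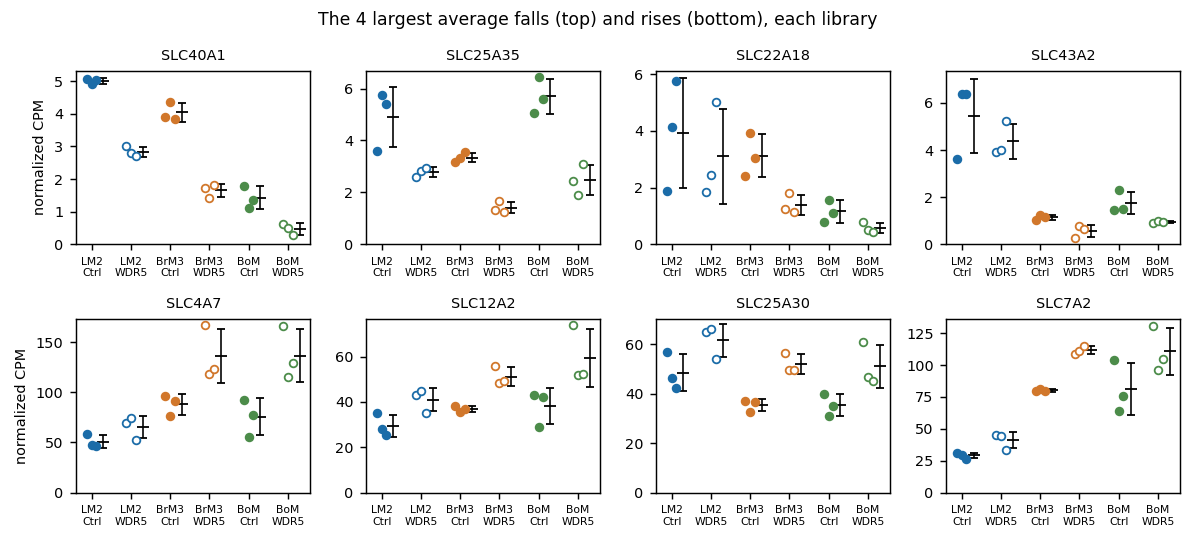
Normalized CPM of each library for the 4 members with the largest average fall (upper row) and rise (lower row), filled for shCtrl and open for shWDR5, with the mean and SD of 3 libraries beside each group. SLC40A1 and SLC25A35 separate by hairpin in every line, while SLC22A18 and SLC43A2 overlap in LM2.

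Of the 36 members of the SLC25 family, which are mitochondrial carriers apart from the peroxisomal SLC25A17, 6 rose and 8 fell on average, and 22 did not pass. These are 16.7% higher and 22.2% lower, close to the 15.6% and 19.9% of all genes. SLC25A3 rose from 722 ± 42.6 to 877 ± 15.6 CPM in LM2, from 1050 ± 22.3 to 1290 ± 133 CPM in BrM3 and from 1160 ± 74.7 to 1460 ± 225 CPM in BoM (SD, n = 3), an average fold of 1.23 (adjusted p = 0.00071). Taken singly, this passed in BoM (adjusted p = 0.035) and missed in LM2 (0.12) and BrM3 (0.07), where it passed with the replicate block (0.045 and 0.028). SLC25A5 had an average fold of 1.15 (adjusted p = 0.0052). The carrier SLC25A30 rose 1.39-fold, the mitochondrial glutathione carrier SLC25A40 1.34-fold, and SLC25A25, which exchanges ATP-magnesium for phosphate, 1.26-fold (adjusted p = 0.00018, 0.0014 and 0.011). SLC25A40 read 14.1, 12.5 and 16.0 CPM in BoM shCtrl and 23.4, 20.6 and 27.3 CPM in BoM shWDR5, whereas in BrM3 it read 15.7, 14.6 and 16.8 CPM against 24.8, 17.2 and 16.2 CPM. SLC25A23, another ATP-magnesium and phosphate carrier, went the other way, with folds of 0.744, 0.792 and 0.603 for LM2, BrM3 and BoM (adjusted p = 0.047, 0.088 and 0.00072, the BrM3 value being 0.033 with the replicate block). The third carrier of this kind among the members, SLC25A24, did not pass, with an average log2 fold change of 0.11 ± 0.09 (adjusted p = 0.35).

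Among 22 amino acid carriers outside mitochondria, 4 rose (SLC38A1, SLC38A2, SLC7A11 and SLC7A2) and 7 fell (SLC1A4, SLC36A1, SLC38A10, SLC38A7, SLC38A9, SLC43A2 and SLC7A5), 18.2% and 31.8% beside 15.6% and 19.9% of all genes. SLC1A4 (ASCT1), an exchanger of alanine, serine and cysteine, read 24.6, 23.7 and 24.6 CPM in BrM3 shCtrl and 16.6, 16.9 and 17.1 CPM in BrM3 shWDR5. In BoM it read 25.7, 21.7 and 27.3 CPM against 15.6, 12.7 and 11.7 CPM, and in LM2 13.7, 14.8 and 13.6 CPM against 12.9, 11.4 and 11.9 CPM. The groups were apart in every line, and the folds were 0.858 for LM2, 0.693 for BrM3 and 0.537 for BoM (adjusted p = 0.28, 0.0049 and 4.4e-05). SLC7A2, which takes up arginine and lysine, rose 1.39-fold on average (log2 0.48 ± 0.09, adjusted p = 0.00049), although in the single lines its adjusted p was 0.063, 0.052 and 0.055 (0.002, 0.0012 and 0.00097 with the replicate block). SLC7A11, which exchanges cystine for glutamate, was 1.28-fold higher on average (adjusted p = 0.02), with adjusted p of 0.24, 0.56 and 0.13 in LM2, BrM3 and BoM, where the block gave 0.018 for LM2 and 0.0068 for BoM. SLC38A2 rose in BoM from 529, 414 and 534 CPM to 814, 624 and 684 CPM (fold 1.44, adjusted p = 0.008). SLC7A5 was 0.797-fold on average (adjusted p = 0.012) and did not pass in a single line, except in BrM3 with the replicate block (adjusted p = 0.016). SLC43A2 (LAT4), a carrier of branched-chain amino acids, was 0.597-fold on average (adjusted p = 0.0015), from 1.47, 2.3 and 1.51 CPM to 0.885, 0.969 and 0.924 CPM in BoM. SLC1A5 did not pass, with a log2 fold change of 0.11 ± 0.06 (adjusted p = 0.18).

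Of 11 glucose and other sugar carriers, 0 rose and 3 fell on average (SLC2A11, SLC2A6 and SLC45A3), which is 27.3% lower beside 19.9% of all genes, and 0.0% higher beside 15.6%. SLC2A1, the main glucose carrier by level, read 331, 385 and 406 CPM in LM2 shCtrl and 368, 350 and 431 CPM in LM2 shWDR5, and its groups overlapped in each line. Its average log2 fold change was 0.06 ± 0.07 (adjusted p = 0.59). SLC2A11 (GLUT11) fell to 0.716-fold (adjusted p = 0.00067), and 20.9% of its exons is covered by genes on the opposite strand. SLC2A6 (GLUT6) was 0.704-fold (adjusted p = 0.031), and this call was lost in 7 of 18 fits with a library left out, namely LM2 shCtrl replicate 3, LM2 shWDR5 replicates 1 and 2, BrM3 shCtrl replicate 2, BrM3 shWDR5 replicate 1, BoM shCtrl replicate 2 and BoM shWDR5 replicate 1, with an adjusted p of at most 0.076.

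Of 5 monocarboxylate carriers of the SLC16 family 3 fell and 0 rose, with a median log2 fold change of -0.39 beside 0.003 over all genes. This is 60.0% of a small group, where 19.9% of all genes were lower and 15.6% higher. SLC16A6 was 0.702-fold on average (adjusted p = 0.0011) and SLC16A5 0.757-fold (adjusted p = 0.0039). SLC16A6 fell in BrM3 from 6.82, 6.76 and 6.59 CPM to 4.85, 3.99 and 3.3 CPM (adjusted p = 0.0096).

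Among 15 carriers of vitamins, choline and lipids 2 rose and 5 fell, 13.3% and 33.3% beside 15.6% and 19.9% of all genes. The risers were the thiamine carrier SLC19A2 (1.29-fold, adjusted p = 0.00045) and SLC5A6 (1.25-fold, adjusted p = 0.00076), which imports biotin and pantothenate. SLC5A6 in BoM went from 79.3, 81.2 and 89.2 CPM to 108, 109 and 108 CPM. The lysosomal carrier SLC46A3 fell in LM2 from 5.48, 4.63 and 4.95 CPM to 3.15, 3.24 and 3.43 CPM and in BrM3 from 7.99, 5.32 and 5.61 CPM to 3.94, 3.49 and 3.2 CPM (adjusted p = 0.024 and 0.0023). The folate carrier SLC46A1 was 0.73-fold on average (adjusted p = 0.0024), and 60.6% of its exons is covered by genes on the opposite strand.

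Of 16 zinc and manganese carriers 1 rose (SLC39A8) and 2 fell (SLC39A11 and SLC39A3), 6.25% and 12.5% beside 15.6% and 19.9% of all genes, while the most abundant, SLC39A7, had an average log2 fold change of -0.01 ± 0.06 (adjusted p = 0.95). SLC39A11 fell from 10.9, 10.4 and 10.2 CPM to 8.28, 7.08 and 7.43 CPM in BrM3 and from 11.1, 10.8 and 9.16 CPM to 6.68, 7.29 and 6.0 CPM in BoM, 0.714-fold on average (adjusted p = 2e-05). SLC39A3 was 0.74-fold (adjusted p = 0.016). Among the 7 carriers of iron, copper, magnesium and other metals 1 rose and 2 fell (14.3% and 28.6%). Besides SLC40A1, the heme carrier SLC48A1 fell, and SLC41A3, of the magnesium carrier family, rose 1.22-fold (adjusted p = 0.0045).

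Of 10 carriers of organic ions, peptides and neurotransmitters 1 rose and 5 fell, with a median log2 fold change of -0.25. Of all genes 15.6% rose and 19.9% fell in this contrast. SLC22A18, which lies at the lower limit of the count minimum, was 0.548-fold (adjusted p = 0.012) but passed in no single line without the replicate block, which gave 0.0035 for BrM3 and 0.044 for BoM, and in LM2 its shCtrl libraries spread from 1.89 to 5.74 CPM. The creatine carrier SLC6A8 was 0.789-fold (adjusted p = 0.034), a call that was lost in 10 of the 18 fits with a library left out and in 4 of 6 other settings. The libraries were LM2 shCtrl replicates 2 and 3, LM2 shWDR5 replicates 1 and 2, BrM3 shCtrl replicate 2, BrM3 shWDR5 replicate 1, BoM shCtrl replicates 2 and 3 and BoM shWDR5 replicates 1 and 3, with an adjusted p of at most 0.2 over all these settings. Of 9 nucleoside and nucleotide sugar carriers 1 rose and 2 fell (11.1% and 22.2%), the latter being the equilibrative carriers SLC29A2 (0.643-fold, adjusted p = 0.00088) and SLC29A3 (0.783-fold, adjusted p = 0.0013), while SLC29A1 was at 0.978-fold (adjusted p = 0.72). Of 9 phosphate and carboxylate carriers 0 rose and 2 fell (22.2%). These exchange glucose 6-phosphate for phosphate at the endoplasmic reticulum, SLC37A1 being 0.623-fold (adjusted p = 1.5e-05) and SLC37A4 0.866-fold (adjusted p = 0.014). SLC37A1 read 2.0, 2.18 and 1.94 CPM against 1.2, 0.931 and 1.23 CPM in BrM3 and 6.94, 8.18 and 5.64 CPM against 4.13, 3.53 and 4.43 CPM in BoM. SLC49A4, placed in no group, did not pass.

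**Figure D4:**
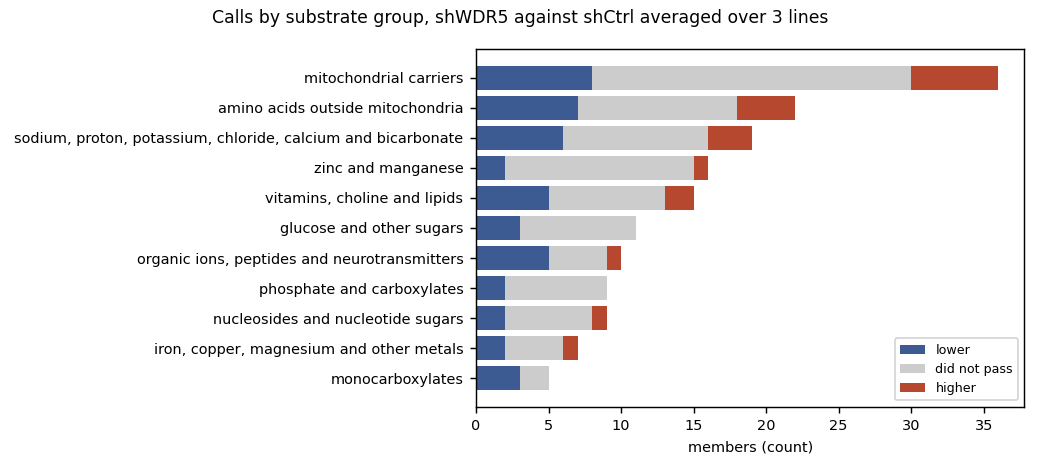
Number of members called lower, not called and called higher in each of 11 substrate groups, for shWDR5 against shCtrl averaged over the lines. The bars show falls in all groups and no rises among sugar, monocarboxylate, and phosphate and carboxylate carriers.

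Carriers whose names lie outside the pattern and proteins that work with carriers were counted in the same fit. Of 49 listed carriers outside the pattern, 32 were tested, and 2 rose and 9 fell on average, 6.25% and 28.1% beside 15.6% and 19.9% of all genes. The mitochondrial pyruvate carrier subunit MPC1 and the outer membrane protein MTCH1 rose by 0.4 and 0.31 on the log2 scale, and SLCO4C1, an organic anion carrier, fell by 1.6. SLCO4C1 was low, with 1371 counts in all and group means of at most 3.22 CPM, and its fall did not pass in LM2 (adjusted p = 0.1). Of 14 partners and sodium pump subunits 11 were tested, with 3 higher and 2 lower (27.3% and 18.2%). TXNIP, which removes GLUT1 from the cell surface, rose in all 3 lines, from 119 to 191 CPM in LM2, from 276 to 409 CPM in BrM3 and from 191 to 313 CPM in BoM (group means, adjusted p = 0.0016, 0.0043 and 0.00052). The sodium pump beta subunits ATP1B1 and ATP1B3 rose by 0.24 and 0.29 on the log2 scale on average.

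Levels in the shCtrl cells were then compared between the lines, with comparisons that share their control libraries. In BrM3 33 members were higher and 45 lower than in LM2, 48.8% of the members beside 47.6% of all genes (24.2% higher and 23.4% lower). In BoM 35 were higher and 58 lower than in LM2 (58.1% of the members beside 51.8% of all genes, 26.0% higher and 25.8% lower). Relative to BrM3, 22 members were higher in BoM and 36 lower (36.2% beside 37.6%, 17.8% higher and 19.8% lower). In at least 1 pair of lines 117 members (73.1%) were called, beside 70.8% of all genes. In all pairs 18 members were called, but the share of all genes was not counted there, so this number has no background. Because the rule summed counts over the lines, with the largest share from LM2, a member could be chosen through a high level in LM2, so these counts are a description. Over the 141 members that reached an even share of the minimum in every line, 32 were higher and 35 lower in BrM3 than in LM2, 34 and 44 in BoM than in LM2, and 18 and 29 in BoM than in BrM3. A called difference of 2-fold or more was seen for 18, 24 and 12 of the 160 members in these comparisons, and for 10.9%, 12.7% and 7.21% of all genes.

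The sulfate carrier SLC13A4, at chr7:135681231-135729258, had the largest difference, but it was chosen through LM2, which gave 98.4% of its 3451 counts. It read 11.6, 12 and 11.2 CPM in LM2, 0.184, 0.0771 and 0.0259 CPM in BrM3 and 0.127, 0.209 and 0.101 CPM in BoM. These are 306, 710 and 1375 reads in LM2 beside 9, 3 and 1 reads in BrM3 and 5, 8 and 2 reads in BoM, so LM2 stood far above both other lines and the size of the gap rests on few reads. The fitted log2 difference from LM2 was -6.79 ± 0.36 for BrM3 and -6.22 ± 0.35 for BoM, given without a test for this reason. SLC16A6 stepped down from LM2 (27.7, 22.9 and 25.8 CPM) to BrM3 (6.82, 6.76 and 6.59 CPM) and BoM (2.63, 2.56 and 1.51 CPM), without overlap between lines, and LM2 gave 82.7% of its counts. SLC37A2, which exchanges glucose 6-phosphate for phosphate, had the same order, with 102, 115 and 119 CPM, 56.2, 58.8 and 53.5 CPM, and 20.1, 18.8 and 15.4 CPM, and was 0.162-fold in BoM relative to LM2 (adjusted p = 2.3e-11). The organic cation carrier SLC22A3 (OCT3) and the related SLC22A23 were also highest in LM2, at 0.255-fold and 0.267-fold in BrM3 and 0.371-fold and 0.286-fold in BoM, and LM2 gave 72.3% and 74.4% of their counts.

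Other members were higher in the BrM3 and BoM cells. SLC7A2 read 31.1, 29.6 and 26.6 CPM in LM2, 79.5, 81.2 and 79.6 CPM in BrM3 and 104, 64.2 and 75.7 CPM in BoM, 2.76-fold and 2.79-fold above LM2 (adjusted p = 6.1e-07 and 4.9e-07), and BoM and BrM3 did not differ beyond their spread (log2 0.02 ± 0.15, adjusted p = 0.93). SLC9A5 was 2.46-fold and 2.36-fold above LM2. SLC1A3 (EAAT1), a glutamate carrier, at chr5:36596588-36688334, was highest in BoM, with 14, 15.0 and 15.3 CPM beside 4.64, 4.19 and 4.42 CPM in BrM3 and 4.12, 3.49 and 2.87 CPM in LM2. This was 4.29-fold over LM2 (log2 2.1 ± 0.13, adjusted p = 1e-09) and 3.33-fold over BrM3 (adjusted p = 2.1e-08). SLC4A11 (2.74-fold) and the mitochondrial pyrimidine nucleotide carrier SLC25A33 (2.02-fold, with 21.6% of its 50-base windows shared with other genes) were also higher in BoM than in LM2, and SLC10A7 (2.0-fold), SLC29A3 (1.87-fold) and SLC2A11 (1.74-fold) were higher in BoM than in BrM3.

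SLC44A2, a choline carrier family member, was highest in BrM3, at 366, 374 and 358 CPM beside 126, 139 and 128 CPM in LM2 and 180, 202 and 183 CPM in BoM, with no overlap between lines. BrM3 was 2.79-fold above LM2 (log2 1.48 ± 0.11, adjusted p = 4.3e-09), and BoM was 0.515-fold of BrM3 (adjusted p = 2.1e-06). The zinc importer SLC39A4 (12.5, 24.7 and 17.4 CPM) and the fatty acid carrier SLC27A1 (25.4, 32.9 and 32.0 CPM) were also higher in BrM3 than in LM2, 3.02-fold and 2.41-fold. SLC37A1 was low in BrM3, at 2.0, 2.18 and 1.94 CPM beside 5.9, 6.43 and 6.34 CPM in LM2 and 6.94, 8.18 and 5.64 CPM in BoM. SLC43A2 was likewise lower in BrM3, at 0.207-fold of LM2, where LM2 gave 79.2% of its counts.

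Ferroportin, which fell with WDR5 knockdown in all lines, also had a low level in BoM, at 0.356-fold of BrM3. SLC22A18 was 0.287-fold in BoM relative to LM2 and 0.372-fold relative to BrM3. BoM gave 8.15% of the counts of the former gene and 8.25% of the latter, and both were chosen mainly through the other lines, so no test is given.

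**Figure D5:**
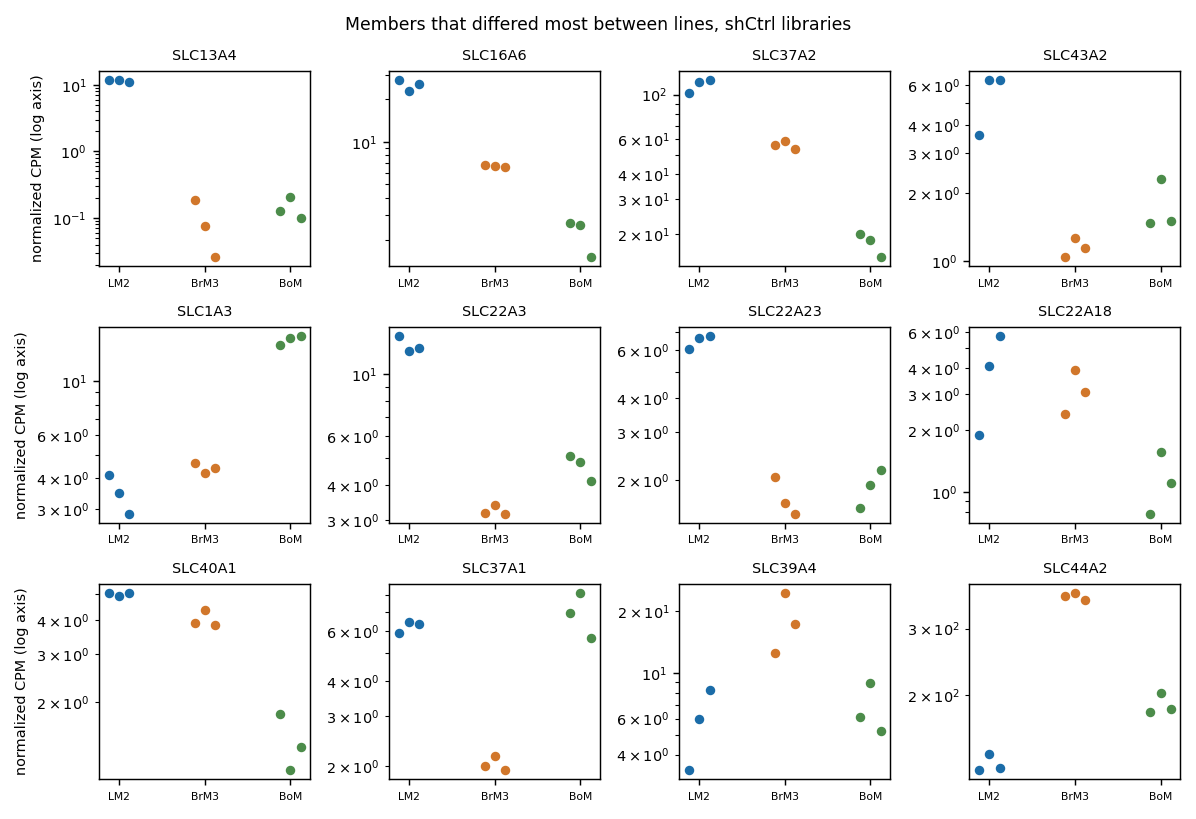
Normalized CPM of the 3 shCtrl libraries per line for the 12 members with the largest differences between lines, each on its own log axis. SLC13A4, SLC16A6 and SLC37A2 are highest in LM2, SLC44A2 and SLC39A4 in BrM3, and SLC1A3 in BoM.

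Whether a carrier responded to WDR5 knockdown differently in 1 line than in another was tested as a difference of responses. By edgeR 0 of the 160 members were called in any pair of lines, beside 0.00822% of all genes for BrM3 against LM2, 0.0% for BoM against LM2 and 0.00822% for BoM against BrM3. At an unadjusted p under 0.05 there were 6, 7 and 7 of the 160 members, beside 361, 630 and 353 of all 12160 genes tested. By DESeq2 2 members were called for BoM against LM2 and 0 for the other pairs. DESeq2 called 0.329% of all genes for BoM against LM2, 0.148% for BrM3 against LM2 and 0.0329% for BoM against BrM3. SLC1A4, which fell more in BoM than in LM2, had the smallest p of the members, with a log2 difference of -0.68 ± 0.16 (unadjusted p = 0.00047, adjusted p = 0.18). SLC25A37 (mitoferrin-1), which brings iron into mitochondria, read 123, 123 and 115 CPM in BoM shCtrl and 151, 142 and 140 CPM in BoM shWDR5, while in LM2 it read 181, 183 and 188 CPM against 175, 179 and 184 CPM (log2 difference 0.3 ± 0.09, adjusted p = 0.4). SLC1A4 and SLC25A37 were the 2 members called by DESeq2, and both also passed with GC offsets and the replicate block together. SLC12A7 and SLC44A2 had the smallest p for BrM3 against LM2, with log2 differences of -0.89 ± 0.32 and 0.43 ± 0.15, and SLC22A3 had the smallest for BoM against BrM3, with 0.73 ± 0.18. The adjusted p of these was 0.68 for SLC22A3 and 1.0 for the others.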

How the data were processed

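RNA was sequenced in 18 libraries, 3 per line and hairpin. The authors aligned paired-end reads with STAR 2.7.0 to hg38, per the paper and the submitters' processing notes, and deposited raw counts of reads per gene. The counts were used as deposited. The table of the authors' own DESeq2 comparisons (log2 fold changes and adjusted p-values) was not used. Spike-in rows numbered 0 in the counts table, so libraries were scaled by TMM, and changes of total RNA were not analysed here. Samples were grouped by their titles, and 0 per-sample columns were left unused.

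The HTSFilter criterion was recomputed and kept 12160 genes whose highest normalized count exceeded 140. All were fitted in edgeR 4.0.16 (R 4.3.3, quasi-likelihood test, two-sided) with 6 groups and 12 residual degrees of freedom, and p-values were adjusted by Benjamini-Hochberg over all genes tested. Standard errors were derived from the F statistic. The script was tested on simulated data. Gene lengths, GC content and coordinates come from GENCODE release 44 on GRCh38, and 13 members share over 20% of their exons or 50-base windows with other genes. Alternatives were DESeq2 1.42.0, other filters, a replicate block, single-line fits, GC offsets and leaving out each library.

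Named genes are the 10 largest rises and falls averaged over the lines, the 5 largest differences per direction and pair of lines, the 2 smallest p per difference of responses, the 10 highest levels per kilobase, the 2 largest called changes per substrate group, any member called in opposite directions in different lines (there were 0), and the neighbours of the count minimum. Other names, such as SLC25A17 and those in lists of calls, were chosen after their values were seen. 1 member that these criteria pick is left out of the text. The members, substrate groups, lists and motifs were chosen with earlier results of these data known. No source says that equal replicate numbers mark a shared passage, and p-values measure the spread between these libraries. The 18 pairs of replicates each differed beyond sampling noise (chi-square per gene between 5.13 and 90.3).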

Additional observations from a re-analysis of the deposited data

How the results depend on the processing

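The 68 values of members named by rule for an average change, a line difference or a difference of responses kept their direction under every alternative run, and the directions of other members were not compared. Of these values 66 stayed on their side of the threshold with DESeq2, 67 with filterByExpr, 66 without a filter, 67 with GC offsets, 68 with the replicate block and 64 with both together, and all 30 that could be fitted alone did. SLC37A4 lost its call without a filter. These values were named for large changes or small p in the same data, which favours a kept direction. Counts of called members moved with the setting. In LM2, where 9 members were called, DESeq2 called 16, the fit of that line alone 5, GC offsets 33, and GC offsets with the replicate block 55. The share of all genes called moved too, from 6.29% to 9.43%, 2.4%, 17.6% and 29.1% in the same order. In BrM3 (17 called) the 141 members that reached an even share of the count minimum in every line gave 9, an alternative added after the data were seen. There GC offsets gave 53 and with the replicate block 69, where 25.6% and 37.8% of all genes were called, against 10.9%. In BoM (33 called) the fit of that line alone gave 14, GC offsets 60 and with the replicate block 70. Of all genes 7.51%, 29.4% and 40.7% were called, against 16.2%. On average GC offsets with the replicate block gave 104 members, 54 higher and 50 lower, against 64, and for BoM against BrM3 in shCtrl 93 against 58. The shares of all genes were 60.9% against 35.5% and 57.8% against 37.6%. For differences of responses, GC offsets with the replicate block called 1 member for BrM3 against LM2 and 2 for BoM against LM2, where DESeq2 also called 2. Those fits called 0.395%, 0.789% and 0.329% of all genes, respectively. The causes were not tested.

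With a library left out, the counts ran from 2 to 15 in LM2, 10 to 22 in BrM3, 18 to 39 in BoM, 61 to 69 on average, 65 to 82 for BrM3 against LM2, 80 to 98 for BoM against LM2, 46 to 64 for BoM against BrM3, and stayed at 0 for the differences of responses. The LM2 count moved by over 1.5 times without LM2 shCtrl replicate 2 (4), LM2 shWDR5 replicate 1 (3) or 2 (2), or BrM3 shWDR5 replicate 1 (15). In these fits 3.42%, 3.17%, 3.22% and 8.18% of all genes were called. The BrM3 count was 10 without BrM3 shCtrl replicate 2 or 3 or BrM3 shWDR5 replicate 2 or 3, and the BoM count was 18 without BoM shCtrl replicate 2. Of all genes 6.46%, 6.13%, 6.34% and 6.16% were called in the BrM3 fits, and 9.68% in the BoM fit.

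With the replicate number as a block (6 residual degrees of freedom), 20 members were called in LM2, 35 in BrM3, 50 in BoM and 79 on average. The block called 11.9%, 19.0%, 26.4% and 47.0% of all genes in the same order. Same-numbered shCtrl and shWDR5 libraries of a line correlated between -0.17 and 0.728 in their deviations from the group means (mean 0.36). The mean for different numbers was -0.194. Deviations from a group's own mean cancel within the group, which pushes this value to the opposite sign, so it is no separate comparison. The correlation was above 0.1 in 7 of 9 pairs, among them all 3 of BoM, and 6 of 9 shCtrl libraries correlated best with their own number. Because the pairs of LM2 and BrM3 were not all above 0.1 and no source used here says what a number marks, the fit without the block was kept, and values with the block are given beside the results it changed. Members under about 5 CPM rest on few reads in the smaller libraries, as for SLC40A1, SLC43A2 and SLC13A4.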
